A study of Bos taurus with 4 samples.

Results

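The genes described here are 36 bovine genes of the interferon response and of class I antigen presentation, chosen by name. Of the 36 genes, 34 had a row in the count files, and IFIT1 and BST2 had none. USP18, which removes ISG15 from proteins, had 0 reads in every library, so 33 of the 36 genes were described, among 16665 rows of the files with at least 40 reads over the libraries. All 33 passed this minimum.

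RNA was measured in 4 libraries from Hanwoo cows over 24 months old, 1 library each of small intestine tissue, muscle tissue, intestinal organoids at passage 5 (P5) and intestinal organoids at passage 10 (P10). The organoids were grown from crypts of healthy jejunum, embedded in Matrigel and fed IntestiCult medium, and no interferon or infection is named in the labels of any library. Each library was made from 500 ng of RNA with QuantSeq, which reads only the 3′ ends of polyadenylated RNA. The muscle is not named, and the labels do not say whether the libraries shared an animal or whether P5 and P10 organoids came from 1 line. Each group was a single library, so the spread between replicates is unknown and nothing was tested.

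Interferons bind receptors on the cell surface, and the kinases JAK1 and TYK2 then activate transcription factors, among them STAT2, which joins IRF9 to switch on the interferon-stimulated genes. Many of these genes act directly against viruses, and others raise the machinery that cuts proteins into peptides, carries them into the endoplasmic reticulum and shows them on class I molecules to cytotoxic T cells. The gut epithelium is known for its response to interferon lambda, whose receptor chain IFNLR1 is found mainly on epithelial cells.

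The libraries held 12917720 to 17776273 reads. RN18S1, an 18S ribosomal RNA row, took 23.6% of the reads in muscle and 0.264% to 4.81% in the others, so values scaled to the library total (CPM) in muscle were lowered against the other libraries. The 10 epithelial markers summed to 3440 CPM in intestine and 54.2 in muscle, against 13466 at P5 and 11281 at P10, and the 8 skeletal muscle markers to 39183 CPM in muscle and at most 3.38 elsewhere. The 25 leukocyte markers summed to 5635 CPM in intestine and 61.2 in muscle, against 8.38 at P5 and 11.1 at P10, or 758, 52.6, 7.06 and 6.43 CPM without JCHAIN. In both organoid libraries 13 of the 25 were at 0 reads, among them CD3D, CD8A, MS4A1 and CSF1R, while PTPRC, which encodes the pan-leukocyte antigen CD45, had 40 reads at P5 and 43 at P10. Stromal markers summed to 998 CPM in intestine and to 3.68 and 0.282 CPM in P5 and P10 organoids, and endothelial markers to 61.4, 3.68 and 3.44 CPM. Smooth muscle markers summed to 2275 CPM in intestine and 2245 in muscle, against 12.6 at P5 and 7.56 at P10. In such bulk RNA, fewer cells of a type and less RNA per cell cannot be told apart.

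For 3 of the genes the next row in the files held nearly the same counts. Rows elsewhere in the files that came as close to other members are not taken up, since they are not neighbours in the gene table. OAS2 overlaps OAS1Y in the RefSeq gene table of the assembly ARS-UCD2.0, and OAS1Y held 1083, 47, 42 and 1 reads where OAS2 held 1252, 49, 42 and 1 (intestine, muscle, P5 and P10). The rows next to IRF1 and PARP9 in the files, LOC107132617 and LOC112447308, were within 15% or 3 reads of them in every library. The sources used here do not say that counting used strand, so reads of such pairs cannot be told apart, and OAS2, IRF1 and PARP9 are uncertain to that extent.

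**Figure D1:**
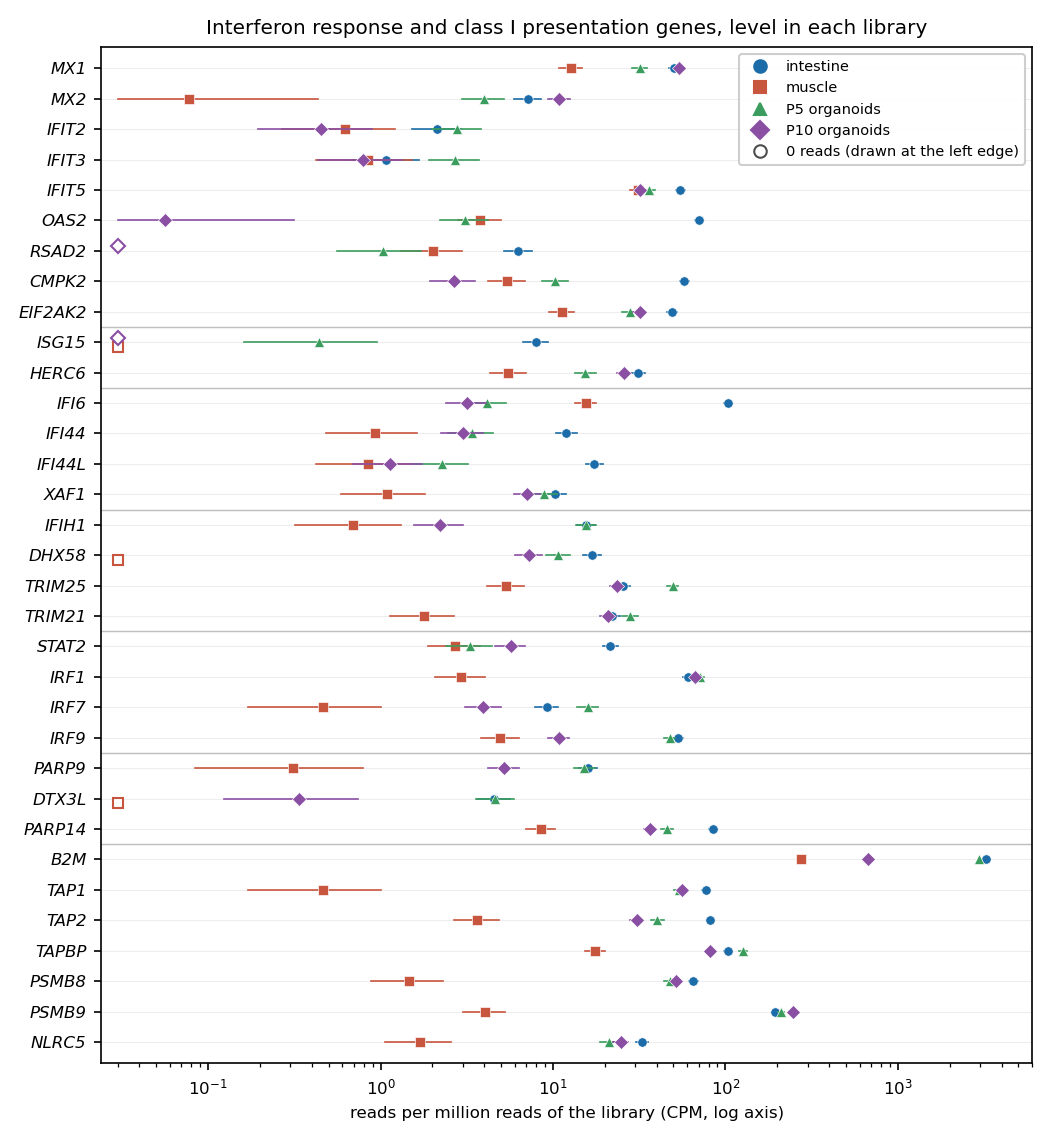
Level of the 33 genes in each library, in CPM on a log axis, with 95% counting intervals as lines and horizontal rules between groups of genes by role. Open symbols at the left edge are 0 reads, and lines that would pass that edge end there. Muscle is the lowest library for all 7 class I genes, and the organoid libraries are far below intestine for OAS2, CMPK2 and IFI6.

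The 33 genes together took 0.463% of the reads in intestine and 0.0424% in muscle, and 0.393% at P5 and 0.151% at P10, which is 4628, 424, 3932 and 1514 CPM. B2M alone made up most of this, and the other 32 summed to 1365, 148, 961 and 847 CPM. On the quantile-normalised log2 scale used for all differences here, intestine was the highest library for 22 of the 33 genes, P5 organoids for 8, P10 organoids for 2 (MX2 and PSMB9) and muscle for 1 (IFIT5). Muscle was the lowest library for 21, P10 organoids for 9, P5 organoids for 2 and intestine for 1 (IFIT3), where ISG15, at 0 reads in both muscle and P10 organoids, is counted under P10. The upper 2 libraries were not separated by counting error for 8 genes, IFIT5 among them, and the lower 2 for 12. The orders also depended on the scaling. In CPM, as the plot of levels by library shows them, intestine was highest for 21, P5 organoids for 9 and P10 organoids for 3, and muscle was lowest for 26, P10 organoids for 6, with ISG15 tied.

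Intestine stood above muscle in most of the genes. At least 2-fold higher in intestine were 26 of the 33, where 30.4% of all rows tested were, and 1 was at least 2-fold lower, where 26.8% of all rows were. The median log2 difference was 2.54 over the 33 genes and 0.03 over all rows. All 7 class I presentation genes were among the higher ones, with a median of 3.26. The 26 were past 2-fold under each of the 5 scalings tried, whereas the 1 lower gene, IFIT3, with 19 reads in intestine and 11 in muscle, was 1.31 lower on the quantile scale and 0.31 higher with library totals. Over all rows, higher genes made up 53.2% of those past 2-fold on the quantile scale and 84.0% with library totals, or 78.7% with totals that leave out RN18S1.

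The organoids were described against intestine in a pair of comparisons that share the intestine library. In P5 organoids 12 of the 33 genes were at least 2-fold lower than in intestine, where 20.1% of all rows were, and 2 were at least 2-fold higher, where 24.2% of all rows were. In P10 organoids 17 were at least 2-fold lower (23.6% of all rows) and 0 were higher (27.4% of all rows). The median difference from intestine was -0.67 at P5 and -1.08 at P10, beside 0.13 and 0.14 over all rows. Under each of the 5 scalings 10 of the 12 stayed past 2-fold at P5, all but EIF2AK2 and PARP14, and 16 of the 17 at P10, all but IFIT5. For the 26 genes outside class I presentation the medians were -0.74 and -1.41, and for the 7 class I genes -0.67 and -0.71. Among all rows past 2-fold, 54.6% were higher at P5 and 53.8% at P10, and these shares were 42.0% and 42.6% with TMM and 43.1% and 42.2% with upper-quartile scaling. The leukocyte, stromal, endothelial and smooth muscle markers were lower in the organoids by the values given above, and their part in these differences was not tested.

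**Figure D2:**
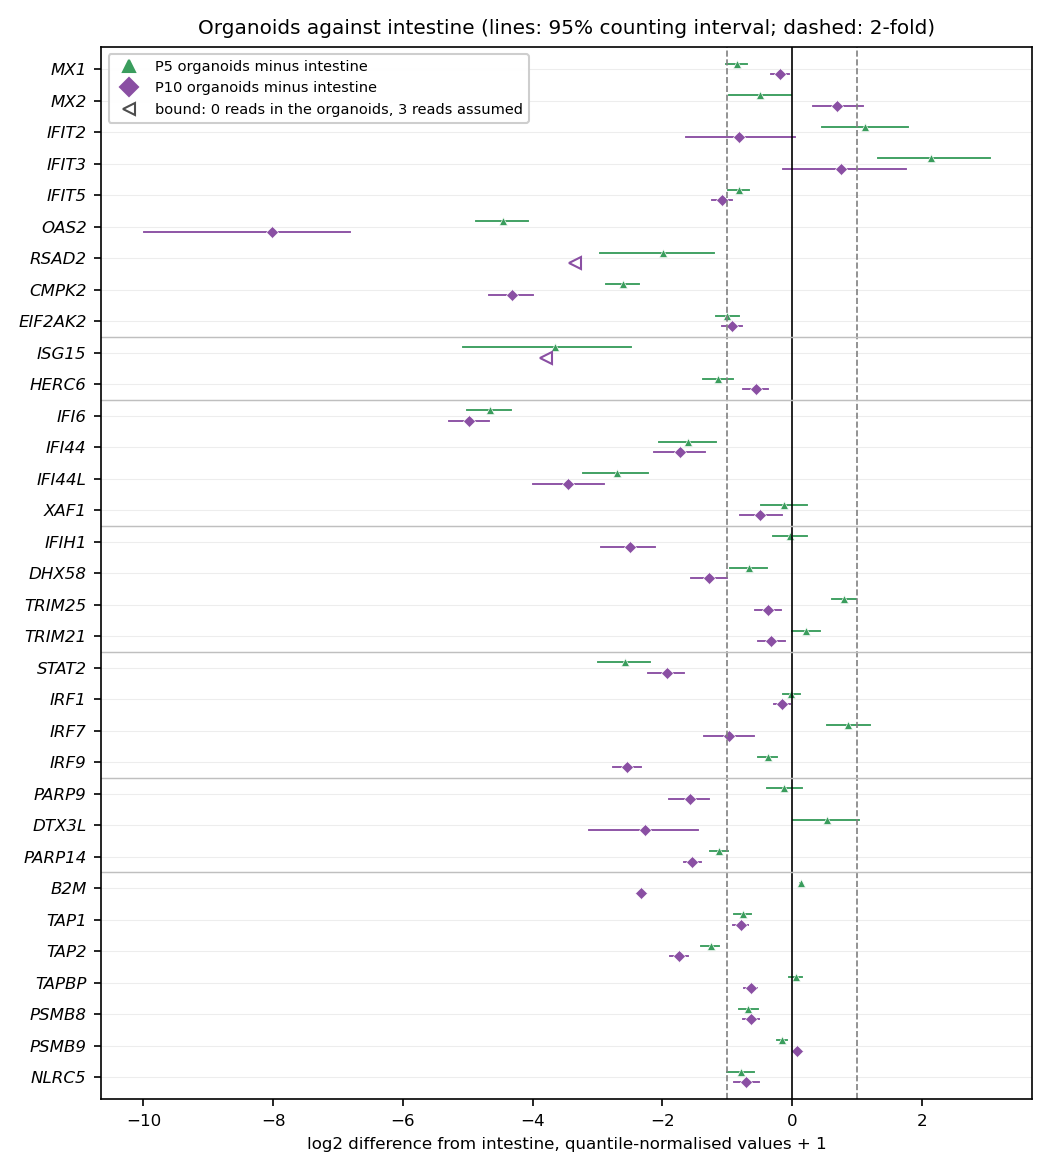
Difference of P5 and P10 organoids from intestine for each of the 33 genes, on the log2 scale of quantile-normalised values plus 1, with 95% counting intervals. Open triangles are bounds that take 3 reads where a library had 0, and dashed lines mark 2-fold. OAS2, CMPK2 and IFI6 lie far to the left at both passages, while IFIH1, IRF9 and B2M are near 0 at P5 and beyond -2 at P10. The sign of the P5 value of IFIH1 and B2M, and of IRF1, DTX3L and PSMB9 there, turns with the scaling, as does that of MX1, IFIT3 and IRF1 at P10.

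The antiviral effectors did not share 1 pattern. OAS2, which makes the oligoadenylates that activate RNase L, had 1252 reads in intestine, 49 in muscle, 42 at P5 and 1 at P10. Intestine was high and P10 organoids were almost without reads. OAS2 was 4.45 lower on the log2 scale at P5 than in intestine (95% counting interval -4.88 to -4.08), which is 21.9-fold. At P10 the single read gave a difference of -8.02 (interval -10.00 to -6.81).

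CMPK2, a mitochondrial nucleotide kinase, and RSAD2, the antiviral enzyme viperin, are neighbours in the gene order of the RefSeq table. CMPK2 had 1029, 70, 140 and 47 reads in intestine, muscle, P5 and P10 organoids. It was 6.10-fold lower than in intestine at P5 and 19.9-fold lower at P10. RSAD2 had 112, 26, 14 and 0 reads in the same order. It was 3.99-fold lower than intestine at P5 and at least 10.2-fold lower at P10, with 3 reads assumed, or at least 37.2-fold lower in CPM. Both genes were lowest at P10, and CMPK2 was highest in intestine, while intestine and muscle were not separated for RSAD2 on the quantile scale (0.05, interval -0.65 to 0.88).

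The dynamin-like GTPases MX1 and MX2, which block incoming viruses, showed another order. MX1 had 890 reads in intestine, 164 in muscle, 432 at P5 and 952 at P10. MX2 had 127, 1, 54 and 192 reads. For both, P5 organoids were below intestine and below P10 organoids. MX1 was 0.85 lower than intestine at P5 (-1.02 to -0.69) and 0.18 lower at P10 (-0.32 to -0.05), a P10 value that turned to 0.10 higher with library totals and 0.04 higher with totals without RN18S1. MX2 was 0.49 lower at P5 (-0.97 to -0.01) and 0.70 higher at P10 (0.32 to 1.09).

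The IFIT proteins bind viral RNA or each other, and their genes were few in reads except for IFIT5. IFIT2 had 38, 8, 38 and 8 reads, IFIT3 had 19, 11, 37 and 14, and IFIT5 had 976, 402, 488 and 568. IFIT2 and IFIT3 had their highest values at P5, though P5 and muscle were not separated by counting error for IFIT3. They were the 2 genes at least 2-fold higher at P5 than in intestine, by 1.12 (0.46 to 1.78) and 2.14 (1.33 to 3.05). Only IFIT3 kept past 2-fold under all 5 scalings, and the IFIT2 value was 0.21 with TMM. At P10 the interval of both held 0 on the quantile scale. The IFIT2 value of -0.82 there lay between -2.31 and -2.09 under the other 4 scalings, and the IFIT3 value of 0.75 turned to -0.41 with library totals. IFIT5 was 0.82 lower than intestine at P5 and 1.08 lower at P10 (-1.24 to -0.93). EIF2AK2, the double-stranded RNA kinase PKR, had 875, 146, 381 and 565 reads and was 2-fold lower than intestine at P5 (log2 interval -1.17 to -0.82) and 1.90-fold lower at P10, so the organoids were close to each other for this gene.

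ISG15, a ubiquitin-like protein that is joined to other proteins, had 141 reads in intestine, 0 in muscle, 6 at P5 and 0 at P10. Only intestine held more than a few reads. It was 12.6-fold lower at P5 than in intestine (log2 -3.65, interval -5.07 to -2.49) and at least 13.9-fold lower at P10, or at least 46.9-fold in CPM. HERC6, a ubiquitin ligase of the HERC family, had 556, 71, 210 and 457 reads and was lower than intestine by 1.14 at P5 and by 0.56 at P10.

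IFI6, a small protein that restrains cell death, had 1839 reads in intestine, 200 in muscle, 56 at P5 and 56 at P10. It was lower in both organoid libraries than in either tissue. The differences from intestine were -4.66 at P5 (-5.02 to -4.34) and -4.97 at P10 (-5.29 to -4.67), which are 25.3-fold and 31.4-fold. The neighbouring genes IFI44 and IFI44L were also lower than intestine at both passages. IFI44 had 213, 12, 46 and 53 reads, with differences of -1.60 and -1.73. IFI44L had 309, 11, 31 and 20 reads, with differences of -2.70 and -3.45. XAF1, which counters the caspase inhibitor XIAP, had 183, 14, 120 and 126 reads and stayed within 2-fold of intestine at both passages.

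Among the RNA sensors and their ubiquitin ligases, 0 of 4 passed 2-fold against intestine at P5 and 2 of 4 were lower at P10, beside 20.1% and 23.6% of all rows that were lower. IFIH1, the sensor MDA5 of long double-stranded RNA, had 276 reads in intestine, 9 in muscle, 212 at P5 and 39 at P10. The P5 library was level with intestine within counting error (-0.03, interval -0.30 to 0.23, turning to 0.01 with library totals) and the P10 library was 5.66-fold lower. DHX58, the related helicase LGP2, had 300, 0, 146 and 128 reads and differed from intestine by -0.67 at P5 and -1.28 at P10. TRIM25, a ligase that acts on the sensor RIG-I, had 453, 69, 674 and 417 reads. It was 0.80 above intestine at P5 (0.61 to 0.98) and 0.38 below it at P10 (-0.57 to -0.17). TRIM21, a cytosolic antibody receptor, had 392, 23, 381 and 370 reads and stayed within 2-fold of intestine.

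The transcription factors differed from one another. STAT2 had 383 reads in intestine, 35 in muscle, 45 at P5 and 101 at P10. It was 5.96-fold lower than intestine at P5 and 3.82-fold lower at P10. Its partner IRF9 had 945, 64, 646 and 191 reads, and was 0.37 lower at P5 (-0.53 to -0.23) and 2.54 lower at P10 (-2.75 to -2.33). The low library was thus P5 for STAT2 and P10 for IRF9 among the organoids. IRF7, which drives interferon genes, had 164, 6, 216 and 70 reads, with 0.86 above intestine at P5 (0.54 to 1.20) and 0.98 below it at P10 (-1.36 to -0.58). IRF1, a factor of the interferon gamma response, had 1079, 38, 964 and 1184 reads. It was within 2-fold of intestine in both organoid libraries, by -0.02 at P5 and -0.16 at P10, and both signs turned with other scalings, to 0.22 and 0.14 with library totals.

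PARP9, DTX3L and PARP14 lie side by side in the RefSeq table. PARP9 and DTX3L form a complex that modifies proteins by ADP-ribose and ubiquitin, and PARP14 is another ADP-ribosyltransferase. PARP9 had 285, 4, 207 and 92 reads, DTX3L had 81, 0, 63 and 6, and PARP14 had 1501, 110, 621 and 648. All 3 were lower at P10 than in intestine, by 1.58, 2.26 and 1.54. The DTX3L value, on 6 reads at P10, lay between -3.72 and -3.52 under the other 4 scalings. At P5 PARP9 was level with intestine within counting error (-0.12, interval -0.38 to 0.15) and PARP14 was 1.13 lower. DTX3L was 0.53 higher at P5 (0.02 to 1.03) on the quantile scale and 0.15 lower with TMM.

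Of the class I presentation genes, B2M had by far the most reads. It encodes the light chain common to all class I molecules. Its reads were 58020 in intestine, 3568 in muscle, 40394 at P5 and 11834 at P10, or 3264, 276, 2970 and 667 CPM. Intestine and P5 organoids were close, P10 organoids lower and muscle lowest. B2M was 5.04-fold lower than intestine at P10 (log2 -2.33, interval -2.35 to -2.31). At P5 it was 0.13 higher (0.12 to 0.15) on the quantile scale, 0.14 lower with library totals and 0.31 lower with TMM.

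TAP1 and TAP2 form the transporter that carries peptides into the endoplasmic reticulum. TAP1 had 1377, 6, 733 and 990 reads and was 0.76 lower than intestine at P5 and 0.79 lower at P10. TAP2 had 1457, 47, 548 and 542 reads and was 1.25 and 1.74 lower, so TAP2 and not TAP1 passed 2-fold. TAPBP, the chaperone tapasin that links the transporter to class I molecules, had 1836, 226, 1722 and 1449 reads. It was level with intestine at P5 (0.06, interval -0.04 to 0.15) and 0.64 lower at P10. NLRC5, the transactivator of class I genes, had 586, 22, 287 and 438 reads and was lower than intestine by 0.79 at P5 and 0.71 at P10. These genes therefore held within 2-fold of intestine at both passages apart from TAP2.

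PSMB8 and PSMB9 are immunoproteasome subunits, which take the place of PSMB5 and PSMB6 in the proteasome when interferon acts, as PSMB10 does of PSMB7. PSMB8 had 1157, 19, 652 and 920 reads and PSMB9 had 3426, 52, 2863 and 4369. PSMB8 was 0.67 lower than intestine at P5 and 0.64 lower at P10. PSMB9 was within 0.16 of intestine in both, lower at P5 and higher at P10, and the P5 sign turned with library totals (0.13). PSMB8, TAP1 and PSMB9 are neighbours in the RefSeq order.

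A ratio of 2 genes within a library does not depend on the library total. The ratio of PSMB8 to PSMB5 reads was 1.35 in intestine, 0.0209 in muscle, 0.462 at P5 and 0.288 at P10. For PSMB9 to PSMB6 the ratios were 2.21, 0.0304, 1.65 and 1.68, and for PSMB10 to PSMB7 they were 2.25, 0.323, 1.42 and 2.08. Muscle was lowest and intestine highest for each of the 3 pairs. For PSMB10 to PSMB7, however, intestine and P10 organoids were not separated by counting error. That normalised ratio differed from intestine by -0.70 at P5 (-0.86 to -0.54) and by -0.09 at P10 (-0.22 to 0.05). It was 0.62 higher at P10 than at P5 (0.48 to 0.75). The normalised PSMB8 to PSMB5 ratio was 1.57 lower than intestine at P5 (-1.76 to -1.38) and 2.36 lower at P10 (-2.53 to -2.19), and 0.79 lower at P10 than at P5. PSMB5 had 858, 908, 1412 and 3191 reads. Within the pair, PSMB8 was 0.67 lower and PSMB5 0.90 higher than intestine at P5, and they were 0.64 lower and 1.72 higher at P10. The PSMB9 to PSMB6 ratio was 0.48 and 0.45 lower than intestine, and the organoids were level for it within counting error (0.03, interval -0.09 to 0.15).

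**Figure D3:**
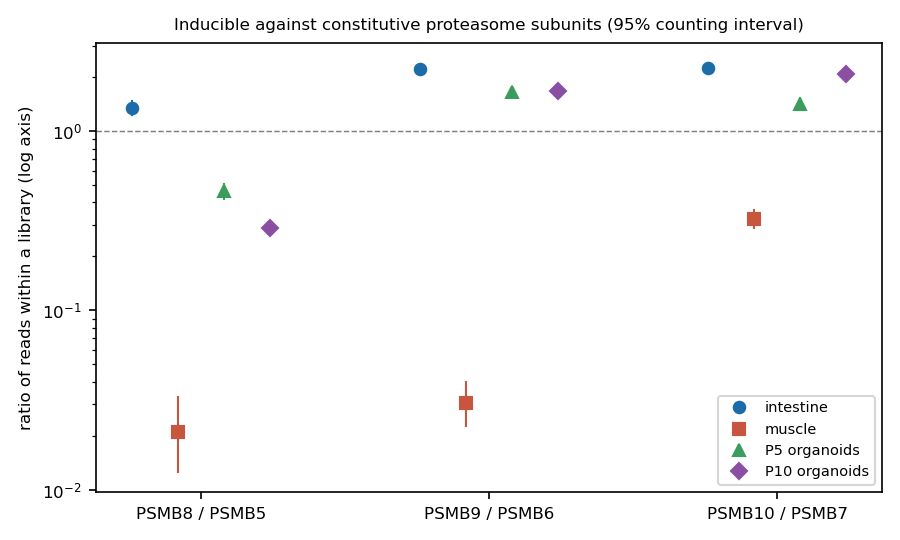
Ratio of reads of each inducible proteasome subunit to the constitutive subunit it replaces, in each library, on a log axis with 95% counting intervals. The dashed line marks equal reads. For all 3 pairs the organoids lie between muscle, the lowest, and intestine, the highest. P10 organoids and intestine are not separated by counting error for PSMB10 to PSMB7.

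P10 organoids were compared with P5 organoids directly. At least 2-fold lower at P10 were 13 of the 33 genes (15.1% of all rows), or 12 with 3 reads assumed where a library had 0, and 1 was at least 2-fold higher (14.9% of all rows). The median difference was -0.54 over the 33 genes, -0.50 with genes at 0 reads set to their bound, and 0.01 over all rows. The lower genes were IFIT2, IFIT3, OAS2, RSAD2, CMPK2, ISG15, IFIH1, TRIM25, IRF7, IRF9, PARP9, DTX3L and B2M, and the 12 other than ISG15 were past 2-fold under each of the 5 scalings. MX2, at 1.19 (0.80 to 1.59), was the higher gene under all 5.

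**Figure D4:**
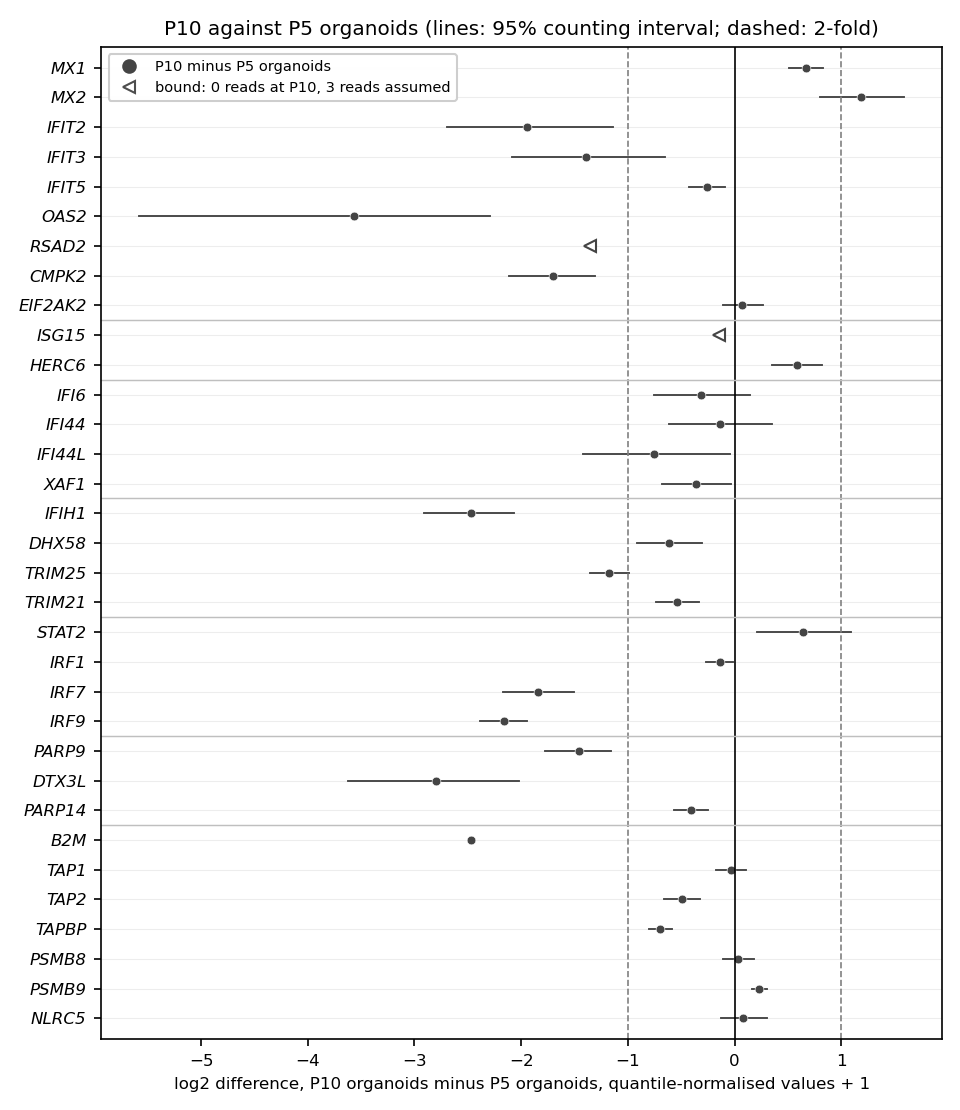
Difference of P10 from P5 organoids for the 33 genes, on the log2 scale of quantile-normalised values plus 1, with 95% counting intervals. Open triangles are bounds that take 3 reads at P10, and dashed lines mark 2-fold. B2M, IRF9 and IFIH1 lie beyond -2 with intervals that stay left of the dashed line, while TAP1, PSMB8 and NLRC5 hold 0 within their intervals, and the sign of TAP1 turns with the scaling.

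Several of the lower genes had many reads. B2M was 5.53-fold lower at P10 than at P5 (log2 -2.47, interval -2.49 to -2.44), IRF9 was 4.48-fold lower (-2.16, interval -2.39 to -1.95) and IFIH1 was 5.54-fold lower (-2.47, interval -2.91 to -2.07). IRF7 was 3.58-fold lower, DTX3L 6.95-fold lower and TRIM25 2.26-fold lower. DTX3L had only 6 reads at P10, and its log2 value of -2.80 lay between -3.60 and -3.54 under the other 4 scalings. For OAS2 and RSAD2, with 1 and 0 reads at P10, the values were -3.57 (-5.58 to -2.29) and at least 2.55-fold lower. ISG15, with 6 and 0 reads, was at least 1.10-fold lower, so its place among the 13 rested on a value of 0 reads.

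Other genes did not share this direction. MX1 was 0.67 higher at P10 than at P5 (0.51 to 0.83), STAT2 was 0.64 higher (0.21 to 1.09) and HERC6 was 0.58 higher (0.35 to 0.82). The class I presentation genes other than B2M were within 2-fold between passages. PSMB9 was 0.23 higher, PSMB8 0.03 higher, NLRC5 0.08 higher, TAP2 0.50 lower and TAPBP 0.70 lower. The wider lists of heavy chain, peptide loading and proteasome genes, given below, also held rows past 2-fold lower at P10. TAP1 was 0.03 lower on the quantile scale and 0.05 higher with library totals. B2M therefore differed from the other 6 class I genes, which lay between -0.70 and 0.23. Single epithelial markers also differed between the passages. KRT20 stood at 2347 CPM at P5 and 684 at P10, CDX2 at 14.6 and 1.35, and EPCAM at 1041 and 578, whereas KRT18 stood at 573 and 1878 and CDX1 at 76.5 and 147. The part of such marker differences in the values above was not tested.

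The comparisons of the organoids with muscle share the muscle library with each other. P5 organoids were at least 2-fold higher in 21 genes (32.2% of all rows), or 20 with 3 reads assumed at 0, and lower in 3 (26.7% of all rows), with a median of 1.82 against 0.09 over all rows, or 1.77 with 3 reads assumed at 0. P10 organoids were at least 2-fold higher in 13 (33.6% of all rows), or 12 with 3 reads assumed, and lower in 5 (27.8% of all rows), with a median of 0.70 against 0.12. The higher genes at P10 were 39.4% of the 33, close to the share over all rows. With library totals the P10 split was 24 higher and 4 lower, and with totals without RN18S1 it was 21 and 4. Over all rows the share of higher genes among those past 2-fold went from 54.6% to 77.2% with library totals at P5 and from 54.7% to 75.7% at P10. All 7 class I genes were at least 2-fold higher than muscle at P5 and 5 of 7 at P10.

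TAP1 had the widest class I difference from muscle, 6.37 in intestine (5.29 to 7.47), 5.61 at P5 and 5.58 at P10, on 6 muscle reads. PSMB9 was 4.41, 4.26 and 4.48 higher than muscle in intestine, P5 and P10. B2M was 3.03 higher in intestine and 3.17 at P5, but at P10 it was 0.70 higher on the quantile scale, 1.27 higher with library totals and 0.16 lower with upper-quartile scaling. IRF1 was 3.13, 3.11 and 2.97 higher than muscle. DHX58, with 0 muscle reads, was at least 28.6-fold higher in intestine, 18.1-fold at P5 and 11.8-fold at P10. DTX3L, also at 0 in muscle, was at least 5.79-fold higher in intestine, 8.38-fold at P5 and 1.21-fold at P10.

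Several effectors were lower in organoids than in muscle. IFI6 was 2.97 lower at P5 (-3.35 to -2.60) and 3.28 lower at P10 (-3.63 to -2.93), and was the 1 gene past 2-fold lower at P5 under all 5 scalings. At P10, OAS2, RSAD2, CMPK2 and IFI6 were lower under all 5. OAS2, at 1 read, was 5.04 lower (-7.05 to -3.75), RSAD2 at least 9.79-fold, and CMPK2 and IFI6 2.12 and 3.28 lower. IFIT5 was 1.19 lower at P10 on the quantile scale and 0.042 higher with library totals. No fold is given for ISG15 in organoids against muscle, where reads were 0 in muscle, 6 at P5 and 0 at P10.

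**Figure D5:**
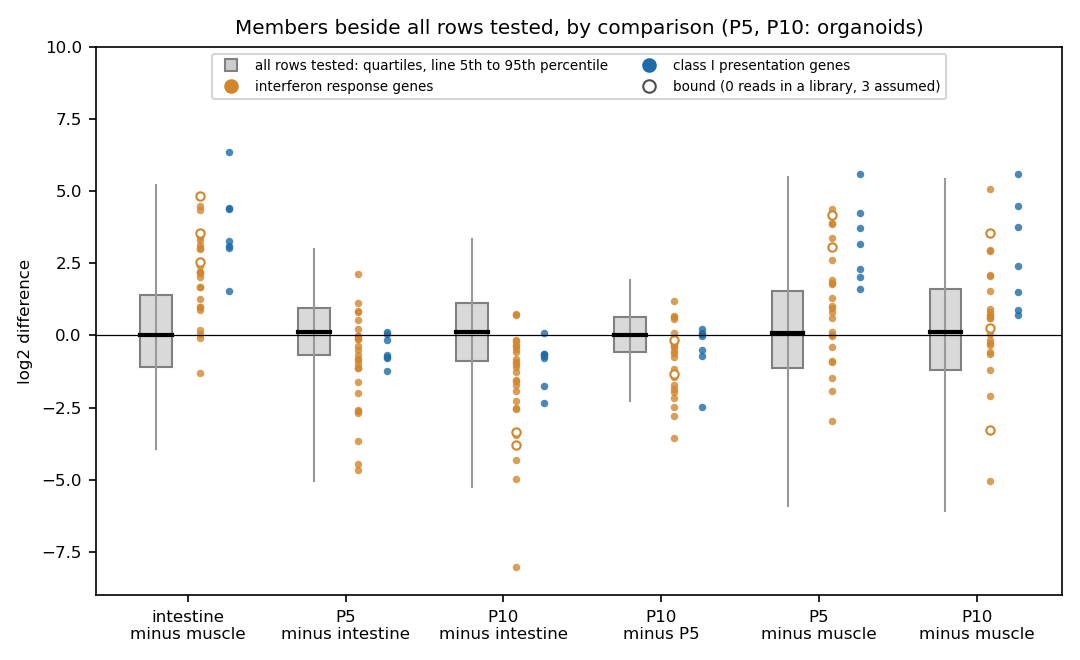
Log2 differences of the genes beside all 16665 rows tested, for each of the 6 comparisons. Grey boxes are the quartiles of all rows with lines to the 5th and 95th percentiles, orange points are the interferon response genes, blue points the 7 class I genes and open points bounds with 3 reads assumed, and ISG15 is left out where no fold is given. The class I points lie above the boxes in intestine against muscle and below the median line for most organoid against intestine values, and single signs near 0, such as B2M at P5 against intestine, turn with the scaling.

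The signalling parts around these genes were read from other lists, each beside the shares of all rows past 2-fold from intestine, which were 24.2% higher and 20.1% lower at P5 and 27.4% higher and 23.6% lower at P10. Of 16 interferon genes, 13 were in the files and 4 had any read. IFNG had 15 reads in intestine and 0 elsewhere, IFNK had 27 at P5 and 7 at P10, IFNT2 had 4 and IFNT3 had 3, both at P5. Among 9 receptor and kinase genes, 2 were at least 2-fold higher than intestine at P5 and 0 lower, and at P10 0 were higher and 3 lower, so the 22.2% higher at P5 was at the share over all rows. IFNLR1, the interferon lambda receptor chain, had 76 reads in intestine, 9 in muscle, 226 at P5 and 108 at P10. It was 2.34 above intestine at P5 (1.89 to 2.78) and 0.95 above it at P10 (0.47 to 1.40). IFNAR1, a chain of the type I receptor, had 32, 0, 50 and 4 reads and was 2.83 lower at P10 than at P5 (-3.80 to -1.96). IFNGR2, of the interferon gamma receptor, had 1562, 313, 782 and 409 reads and was 0.84 and 2.26 lower than intestine. TYK2, the kinase, had 210, 10, 180 and 323 reads and stayed within 2-fold among the intestinal libraries.

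Of 10 sensing genes tested, 1 was higher and 4 were lower than intestine at each passage, which is 10% and 40%. IFI16, a DNA sensor, had 520, 62, 9 and 15 reads and was 5.20 lower at P5 and 4.58 lower at P10. IKBKE, a kinase that activates IRF3, had 94, 1, 133 and 52 reads and was 1.24 higher than intestine at P5, with an interval at P10 that held 0 (-0.76 to 0.22). TMEM173, the adaptor STING, had 86, 4, 27 and 72 reads. Of 5 negative regulators, 1 was higher and 2 lower at P5, and 0 were higher and 1 lower at P10, counts too small to set apart from the shares over all rows. SOCS3, which blocks JAK kinases, had 87, 54, 3 and 94 reads, so P5 was at the level of 3 reads. Its relative SOCS1 had 19, 26, 19 and 6 reads. PTPN6, a phosphatase abundant in blood cells, had 354, 24, 123 and 58 reads.

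The list of class I heavy chains and related genes held 8 rows tested, of which 1 was at least 2-fold higher and 1 lower than intestine at P5, and 0 higher and 2 lower at P10, or 1 lower with 3 reads assumed at 0. These counts are too small to set apart from the shares over all rows. The BOLA, BoLA, BOLA-NC1 and JSP.1 rows are close copies that can share reads, so their values are uncertain, while MR1 and FCGRT are distinct genes. A row named BOLA had 2531, 208, 1135 and 1151 reads, another of the same name had 20, 3, 19 and 0, and a row named BoLA had 4299, 342, 2684 and 4733. The rows with the most reads were JSP.1, with 89134, 2688, 85365 and 72037, and another BOLA row, with 62058, 2495, 57329 and 39831. At P10 the differences from intestine were -1.43 and -0.85 for the BOLA rows with 2531 and 62058 intestine reads, -0.99 for BOLA-NC1, -0.10 for BoLA and 0.00 for JSP.1 (-0.06 to 0.17), beside -2.33 for B2M. In CPM, JSP.1 stood at 5014 in intestine and 4063 at P10, so its value of 0.00 depended on the scaling. The BOLA row with 20 intestine reads was at least 1.48-fold lower. Against P5, 0 of the 8 rows were higher at P10 and 2 lower, beside 14.9% and 15.1% of all rows. These were the BOLA rows with 20 and 62058 intestine reads. The larger stood at 16.24 on the log2 scale at P5 and 14.89 at P10. In CPM it stood at 4215 and 2246, so its place past 2-fold depended on the scaling.

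Of 13 peptide loading and proteasome genes, 0 were higher and 1 lower than intestine at P5, and 1 higher and 2 lower at P10, shares of 7.69% lower at P5 and 15.4% at P10. The 1 higher gene was PSMB5. ERAP1, which trims peptides in the endoplasmic reticulum, had 904, 68, 509 and 251 reads and was 0.65 and 2.11 lower than intestine. Between passages 0 of the 13 were higher at P10 and 1 lower, beside 14.9% and 15.1% of all rows. That gene was ERAP1, 1.47 lower at P10 than at P5. ERAP2, a second trimming enzyme, had 675, 40, 118 and 219 reads and was 2.22 and 1.86 lower.

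Of 39 rows of other interferon-stimulated genes tested, 6 were at least 2-fold higher and 16 lower than intestine at P5, and 2 higher and 17 lower at P10. The medians were -0.45 and -0.60 beside 0.13 and 0.14 over all rows. IFITM3 was counted as 2 rows with nearly the same reads (520, 75, 131 and 750, and 535, 57, 141 and 750). OAS1Y, whose reads cannot be told apart from those of OAS2, was also in the list and lower at both passages. The lower rows were 41.0% and 43.6% of the 39. Between passages 4 were higher at P10, which is 10.3% beside 14.9% of all rows, and 10 were lower, which is 25.6% beside 15.1%. The median was -0.31 beside 0.01 over all rows. IFITM2, a membrane protein that blocks virus entry, had 1172, 52, 4218 and 7416 reads and was 2.05 and 2.53 higher than intestine. IFITM1 had 1172, 64, 3657 and 7457 reads, so close to IFITM2 that shared reads cannot be told apart, and these were the 2 genes of the list higher at P10. CIITA, the master regulator of class II genes, had 279 reads in intestine, 32 in muscle and 0 in both organoid libraries, at least 53.1-fold lower than intestine at P5 and 31.1-fold at P10. CXCL11, a chemokine, had 44, 0, 45 and 0 reads and was at least 7.38-fold lower at P10 than at P5. LY6E had 116, 60, 0 and 6 reads. The leukocyte markers given above were also near 0 in organoids, and their part in the values of CIITA, IFI16 and PTPN6 was not tested.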

How the data were processed

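The authors mapped single-end QuantSeq reads by Bowtie2, used Bedtools coverage to count both unique and multiple alignments per gene, and deposited whole-number read counts without normalisation. Genome build, annotation and tool versions are not given in the sources used here, so genes are named by symbol and no coordinates are given. The labels also name edgeR.

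The counts of the 22200 rows (of 29792) with a read in any library were quantile-normalised, with tied counts sharing the value of their average rank, and put on the scale log2(value + 1), where 1 read stood at 0.32 for intestine, 0.81 for P5 and 2.09 for both muscle and P10. Differences cover rows with at least 40 reads in all. Intervals combine exact Poisson 95% bounds of each count, and cover counting error only. Reads copied by PCR, with no molecular identifiers, are not independent molecules, so the intervals can be too narrow even for that error. At most 3 reads was taken as the floor (0.169 to 0.232 CPM). A fold against 0 reads is a bound from 3 reads. The library totals were 17776273 (intestine), 12917720 (muscle), 13599831 (P5) and 17730571 reads (P10).

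No test was made. The members and lists were chosen with earlier results of these data known. Named are every member and, per other list, the genes with the largest and smallest difference of P5 organoids and intestine and of P10 and P5 organoids, with the proteasome partners. Genes of a list with no or few reads, the markers, IFITM1, the further heavy chain rows and the rows alike to a member were named after their values were seen. The 9 alternatives were library totals with and without RN18S1, TMM, upper quartile, pseudocounts of 0.1 and 5, a minimum of 10 reads in any library, no filter, and rows summed by symbol. The calculations were tested on simulated data. Tools were R 4.3.3 with limma 3.58.1 and edgeR 4.0.16, and Python 3.11.15 with scipy 1.17.1, pandas 2.3.3, numpy 2.4.6 and matplotlib 3.10.9. Promoter sequences were not analysed here.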

Additional observations from a re-analysis of the deposited data

Results flagged for a closer look

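For 7 of the 33 genes the P5 and P10 organoid libraries lay on opposite sides of the shared intestine library with both counting intervals clear of 0. With 1 library in each group this difference was not tested. IRF7 was at 0.86 above intestine at P5 and at -0.98 at P10 on the log2 scale. TRIM25 was at 0.80 and -0.38, and TRIM21 at 0.22 and -0.32. MX2 was the 1 gene of the 7 past 2-fold between passages in the upward direction, at -0.49 at P5 and 0.70 at P10. DTX3L was at 0.53 and -2.26, B2M at 0.13 and -2.33, and PSMB9 at -0.16 and 0.073. For DTX3L, B2M and PSMB9 the P5 sign turned with another scaling, to -0.15, -0.31 and 0.14 at the far end of the 5 scalings.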

How the results depend on the processing

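No paired analysis was possible because each group has 1 library. Of 180 counts, medians and proteasome ratios under the alternatives, 155 stayed within 1.5 times (counts) or within the counting interval, and 25 moved. The cause was not tested. Against intestine, the genes at least 2-fold higher at P5 went from 2 to 1 with library totals, totals without RN18S1, TMM, upper quartile and a pseudocount of 5. In intestine against muscle, the 1 lower gene went to 0 with the first 4 of these. In the same comparison the median of 2.54 became 3.58 with library totals and 3.26 without RN18S1. In P5 organoids against muscle, 3 lower genes became 1 with library totals and 5 with upper quartile, and the median of 1.82 became 2.97 with library totals and 2.88 without RN18S1. In P10 organoids against muscle, 13 higher genes became 24 and 21, and the median of 0.70 became 2.09 and 1.71. These scalings also moved the median of all rows against muscle, to 1.23 in intestine and P5 organoids and 1.32 in P10 organoids with library totals, and to 0.91, 0.93 and 0.94 without RN18S1. With raw reads, the ratio of PSMB9 to PSMB6 against muscle was 6.19 in intestine, 5.77 at P5 and 5.79 at P10 in place of 5.53, 5.05 and 5.08, and that of PSMB10 to PSMB7 was 2.80, 2.13 and 2.69 in place of 2.52, 1.82 and 2.44. The minimum of 10 reads, no filter and the pseudocount of 0.1 moved none of these.

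Called values of 4 genes reversed. With library totals, IFIT3 in intestine against muscle became 0.31, IFIT5 in P10 organoids against muscle 0.042, LY6E in intestine against muscle 0.48 and SOCS3 there 0.22, and LY6E became 0.16 without RN18S1. A BOLA row with 3 reads in muscle and 0 in P10 organoids was at the floor in both, so it has no fold there. When summed with the larger rows of its symbol, BOLA was 2.91 higher in P10 organoids than in muscle. Of 336 values of single genes, 180 left their counting interval with library totals, 164 without RN18S1, 62 with TMM and 71 with upper quartile.

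The planned search of promoters for the interferon response element was not run. A gene at 3 reads or fewer cannot show a lower level, which held for 4 of the 33 genes in muscle and 3 in P10 organoids.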
